A study of Mus musculus with 24 samples.

Results

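The Egr transcription factors and their Nab corepressors are 6 genes in the count table of the mouse visual cortex. They are Egr1, Egr2, Egr3, Egr4, Nab1 and Nab2, found by gene symbol among 55414 genes, and all 6 had enough reads to be tested alongside 14464 genes in all. The Egr proteins are zinc finger transcription factors that neurons make within minutes to hours of synaptic activity, and they bind GC-rich sites near their target genes. Egr1 and Egr3 are the forms best known from cortical and hippocampal plasticity, Egr2 is also required for myelination by Schwann cells, and Egr4 is also made on neuronal activity. Nab1 and Nab2 contain no DNA-binding zinc fingers of their own. They dock on the repression domain of some Egr proteins and recruit the NuRD chromatin complex. Nab2 is itself known as a gene that Egr proteins turn on, which forms a feedback loop.

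Each library held poly-A selected RNA from the visual cortex of 1 male C57BL/6J mouse, aged 8 weeks, from a colony kept on a reversed light cycle and tested in its dark phase. Dark mice received PBS and stayed in the dark, light mice received PBS and were moved into light, psilocybin-dark mice received 5 mg/kg psilocybin and stayed in the dark, and psilocybin-light mice received 5 mg/kg psilocybin and were moved into light. Tissue was taken 2.5 h later, with 6 mice per group. Psilocybin is a prodrug whose product activates serotonin receptors. Totals lay between 13552516 and 17906994 counts per library. The labels name no batch of extraction or sequencing.

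The light exposure of the libraries has conflicting sources. Here libraries 1 to 6 are dark, 7 to 12 psilocybin-dark, 13 to 18 light and 19 to 24 psilocybin-light, as headed in the study's own count table, whose raw counts equalled the deposited ones for 1457 of 1457 genes compared. GEO's treatment labels name the same drug for each of the 24 libraries and swap light with dark. With the labels in place of the headings, no library leaves its set of 6, so each comparison below turns into another one of the set. What is called light against dark changes sign, with 5 members lower rather than higher. The effect of psilocybin in the dark becomes the contrast given here as psilocybin-light against light, with 0 members past the threshold, and its effect in light becomes the contrast of psilocybin-dark with dark, with 4. The interaction changes sign with the same 2 members.

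A few libraries stood apart by marker genes of other brain regions. The summed level of 10 cerebellar genes was 2460 CPM (counts scaled to a common library size) in dark library 1, 5084 in dark library 6, 2404 in psilocybin-dark library 12 and 1511 in light library 18, against at most 268.0 in any other library. The summed level of 11 hippocampal genes ranged from 117.9 to 429.3 CPM in the dark libraries and from 80.05 to 107.2 CPM in all others, so it separated the dark group from the rest. Fibcd1 differed most, with a mean of 2159 counts (scaled to the mean library size) in dark mice. Its means were 189.2 in light, 166.0 in psilocybin-dark and 151.6 in psilocybin-light mice. Rgs14 differed less, with 768.9 in dark mice and 656.5, 682.6 and 727.8 in those groups. Of the 8 tested hippocampal genes, 4, 2 and 5 were lower in light, psilocybin-dark and psilocybin-light mice than in dark mice. All 10 cerebellar genes were called lower in psilocybin-light than in dark mice (median log2 fold change -4.55), and 0 of 10 in the other 2 comparisons with dark mice. The medians there were still below 0, at -2.14 in light and -1.43 in psilocybin-dark mice. The oligodendrocyte marker sum of dark library 1 was 7027 CPM, against 1086 to 4908 CPM in the other libraries. The thalamic marker sum was 227.7 CPM in dark library 1 and 227.9 CPM in psilocybin-light library 23, against at most 184.5 CPM in any other library. Markers of cortical neurons were present throughout, with sums over 8 genes of 1513 to 3044 CPM and the lowest in dark library 1, and 4 of the 8 were higher and 1 lower in each comparison with dark mice. Astrocyte marker sums ran from 1346 to 1913 CPM in dark and from 956.4 to 1326 CPM in psilocybin-light mice, with 4 of 6 genes lower and 1 higher. The part of these markers in the Egr and Nab differences was not tested beyond the fits named below. Values without libraries 1, 6, 12 and 18, a set chosen after the data were seen, and with the hippocampal markers as a covariate are given beside the results that they change. In bulk tissue, fewer cells of a type and less RNA per cell cannot be told apart.

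The start regions of the genes are shown because the Egr genes moved together and their promoters are where activity-dependent factors are known to act. They come from the RefSeq promoter table (GRCm38.p6), which holds 5 start sites for Egr2 and 1 each for Egr4, Nab1 and Nab2, and each is the 250 bases that precede the start site. For Egr2 the third of its start sites is shown, at chr10:67537619-67537868 on the plus strand. Egr4 lies at chr6:85513590-85513839, Nab1 at chr1:52500449-52500698 and Nab2 at chr10:127666704-127666953, all on the minus strand. Capitals mark core letters of the cyclic AMP response element (CGTCA or TGACG), CArG boxes, which SRF binds, and Egr sites (GCGNGGGCG or its reverse complement), each searched on both strands.
Egr2: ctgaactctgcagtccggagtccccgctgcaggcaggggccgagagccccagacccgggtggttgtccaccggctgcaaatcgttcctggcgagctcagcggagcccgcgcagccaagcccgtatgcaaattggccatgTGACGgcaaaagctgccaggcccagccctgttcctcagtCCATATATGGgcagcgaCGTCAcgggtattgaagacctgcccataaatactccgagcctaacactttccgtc
Egr4: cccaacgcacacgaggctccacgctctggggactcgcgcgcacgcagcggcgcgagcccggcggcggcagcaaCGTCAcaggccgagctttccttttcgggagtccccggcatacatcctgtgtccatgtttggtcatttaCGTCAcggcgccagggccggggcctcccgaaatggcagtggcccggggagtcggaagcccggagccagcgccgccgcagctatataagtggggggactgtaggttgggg
Nab1: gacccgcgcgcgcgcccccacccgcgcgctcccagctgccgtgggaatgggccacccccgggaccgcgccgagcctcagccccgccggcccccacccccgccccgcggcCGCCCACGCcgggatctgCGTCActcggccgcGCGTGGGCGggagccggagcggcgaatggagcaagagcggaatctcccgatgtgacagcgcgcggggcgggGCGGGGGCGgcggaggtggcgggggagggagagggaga
Nab2: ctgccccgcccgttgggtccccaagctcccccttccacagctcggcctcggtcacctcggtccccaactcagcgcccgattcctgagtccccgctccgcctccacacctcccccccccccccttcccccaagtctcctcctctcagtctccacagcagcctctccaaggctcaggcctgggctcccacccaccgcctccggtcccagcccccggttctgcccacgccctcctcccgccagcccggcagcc

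The 4 regions held different motifs. Egr2 had 1 CArG box, CCATATATGG, 72 bases before the start site, with response element cores 111 and 55 bases before it. Egr4 had such cores 177 and 109 bases before its start and no CArG box. Nab1 had 3 Egr sites, 141, 109 and 38 bases before its start, and 1 core 123 bases before it. Nab2 had none of these motifs in its window. GC boxes (GGGCGG), whose letters can overlap those of an Egr site, were counted in windows of 300 bases, which run past the start site. The window of Nab1 held 7, 1 of them 11 bases after the start and so outside the sequence shown. That of Nab2 held 1 (245 bases before the start), and those of Egr2 shown here and Egr4 held 0. Of the 5 windows of Egr2, 4 held a CArG box, but not each a separate one. The windows starting at bases 67537619, 67537620 and 67537680 overlap and share the same CCATATATGG. The window starting at base 67537316 held CCTTTTTTGG. Of 32851 promoter windows of 300 bases in the table, 1.63% held a CArG box, 20.8% a core, 5.55% an Egr site, 35.7% a GC box and 1.79% a full response element (TGACGTCA), which none of these windows had. These are matches of letters and not measured binding. Egr1 and Egr3 were not in the table.

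In GENCODE vM39 (GRCm39), the Egr genes are compact and Nab1 is long. Egr2 spans chr10:67371305-67378018, Egr3 spans chr14:70314350-70320063, and Nab1 spans chr1:52494147-52539838 with 11 exon blocks. Egr4 lies at chr6:85485678-85490675 and Nab2 at chr10:127496786-127504458, while Egr1, with 2 exon blocks, spans chr18:34992876-34998049. Read counts covered 3405 exonic bases for Egr2 and 4496 to 4708 for the other Egr genes and Nab2 (4663), with 7098 for Nab1.

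Per exon length, the means of Egr1 and Egr3 were far above those of the other 4 members in every group. In dark mice the lowest Egr3 library, at 7.77 RPKM, still lay below the highest Egr4 library, at 10.1. In dark mice, Egr1 stood at 31.6 ± 12.8 and Egr3 at 29.0 ± 17.4 RPKM (reads per kilobase of exon at a common library size; SD, n = 6), and their ranges of 12.5 to 47.2 and 7.77 to 54.1 overlapped. Egr4 followed at 6.97 ± 3.02, Nab2 at 6.57 ± 0.721 and Nab1 at 5.07 ± 0.788 RPKM, 3 levels that overlapped from library to library. Egr2 was lowest at 1.37 ± 1.05 RPKM, below every Nab1 value. In psilocybin-light mice the order was Egr1 (131 ± 25.5), Egr3 (115 ± 16.8), Egr4 (16.6 ± 3.42), Nab2 (9.54 ± 1.53), Egr2 (7.33 ± 3.15) and Nab1 (4.44 ± 0.311 RPKM). There the lowest Egr4 library, at 12.5 RPKM, lay above the highest Nab2 library, at 11.5, and the mean of Egr2 lay above that of Nab1, although the Egr2 range of 3.24 to 12.3 RPKM still spanned the Nab1 values.

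**Figure D1:**
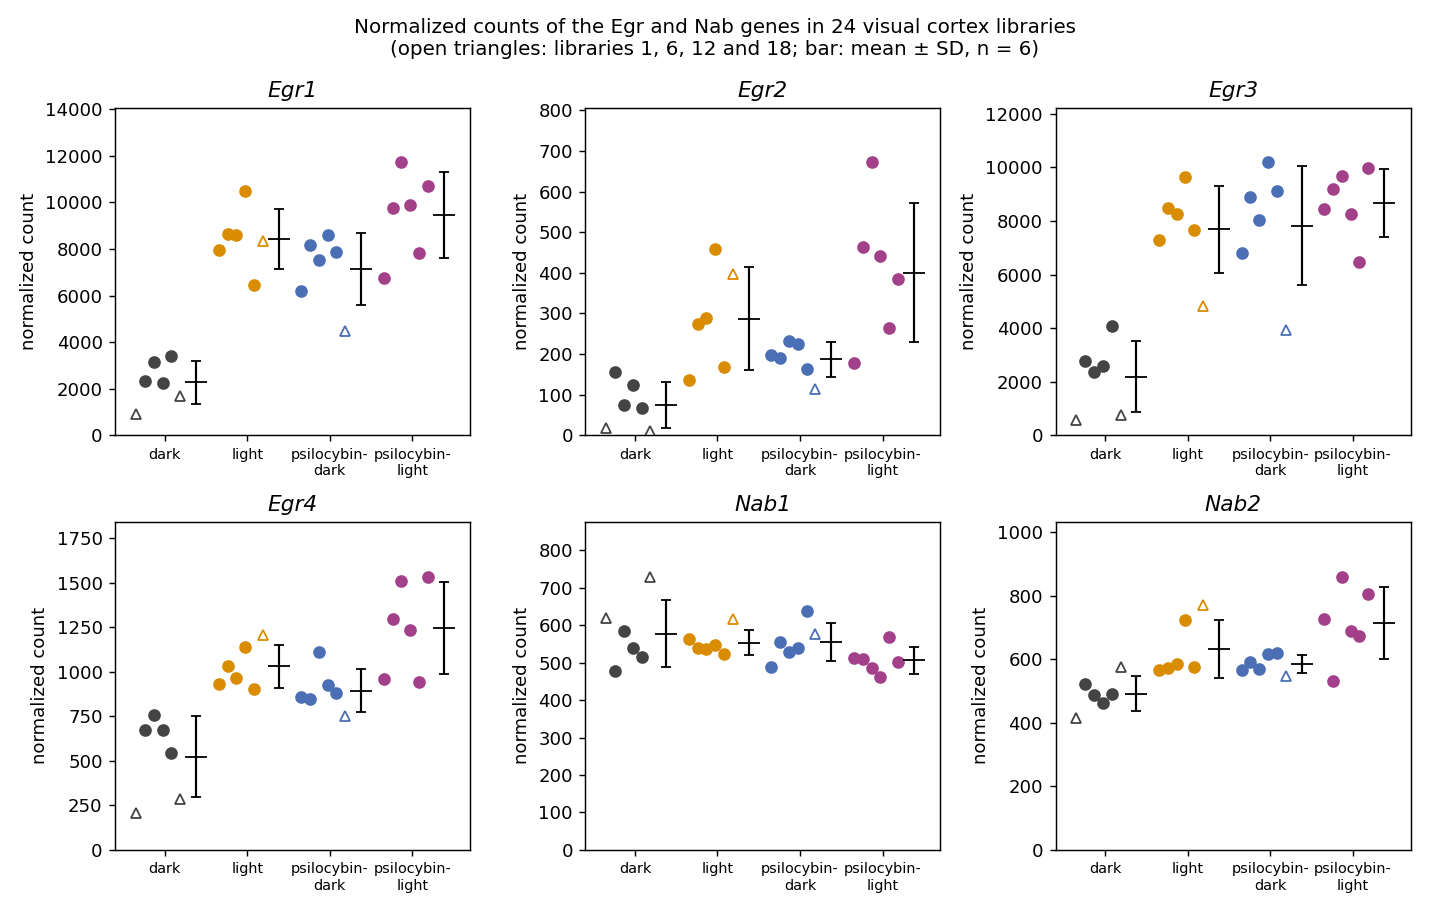
Normalized counts (reads scaled to the mean library size of 16058300) of each gene in the 24 libraries, by group, with the mean and SD of 6 mice beside the points. All 6 light and all 6 psilocybin-light libraries lie above every dark library for Egr1, Egr3 and Egr4, Nab1 sits at similar heights in the 4 groups, and the open triangles are libraries 1, 6, 12 and 18, which carry cerebellar markers.

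Light against dark answers which members rose after 2.5 h of light without drug. All 4 Egr genes and Nab2 were higher in light mice, 5 of 6 members, and Nab1 was not called. Over all 14464 genes, 31.9% passed an adjusted p under 0.05 in this comparison and 15.4% were higher, so the calls were not particular to these genes. For Egr1, Egr3 and Egr4 all 6 light libraries lay above all 6 dark ones, 3 of 6 members where 5.59% of all genes did so. The median log2 fold change of all genes was -0.01.

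Egr3, a factor whose loss impairs the response of neurons to experience, ranged in dark mice from 588 to 4086 normalized counts around a median of 2475, and in light mice from 4818 to 9643 around a median of 7967. The groups did not touch, but dark libraries 1 and 6 were far below the other dark ones, and light library 18 was the lowest of its group. Its mean rose 3.51-fold (95% interval 2.18 to 5.66; log2 fold change 1.81, SE 0.33, edgeR quasi-likelihood test, adjusted p = 0.000277). Without libraries 1, 6, 12 and 18 the log2 fold change was 1.49 (adjusted p = 2.86e-07).

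Egr1, the family's prototype, lay between 903 and 3405 normalized counts in dark mice and between 6456 and 10488 in light mice, and rose by 1.88 on the log2 scale (SE 0.23, adjusted p = 5.01e-06). Egr2 rose by a similar factor from a much lower base. Dark libraries held 10.1 to 155 normalized counts of Egr2 (median 71.1) and light libraries 135 to 460 (median 282), so that the highest dark library, number 2, passed the lowest light one, number 13. The log2 fold change was 1.94 with an SE of 0.45 (adjusted p = 0.00206), and the raw counts behind the dark values ran from 11 to 167 reads. Without libraries 1, 6, 12 and 18 the value was 1.32 (adjusted p = 0.00611).

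Egr4, whose protein binds the same kind of site, changed less than its relatives. Dark libraries spanned 208 to 758 normalized counts (median 608) and light libraries 903 to 1208 (median 998), with no overlap. The rise was 1.97-fold (interval 1.43 to 2.71, log2 fold change 0.98, SE 0.22, adjusted p = 0.00186), and the value without libraries 1, 6, 12 and 18 was smaller, at 0.59 on the log2 scale (adjusted p = 0.00151).

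The corepressors differed from each other. Nab2 spanned 415 to 575 normalized counts in dark mice (median 490) and 566 to 770 in light mice (median 579), and 1 dark library, number 6, reached into the light range. Its rise was 1.28-fold (interval 1.11 to 1.48, log2 fold change 0.36, SE 0.10, adjusted p = 0.00815). Nab1 spanned 478 to 730 counts in dark mice and 523 to 616 in light mice, and its log2 fold change was -0.06, with an interval of -0.23 to 0.11 (adjusted p = 0.61). The Nab1 value changed sign, to 0.08, when dark libraries 1 and 6 were left out, and was -0.28 and called (adjusted p = 0.0125) when dark libraries 2, 3, 4 and 5 were left out, a fit in which Nab2 was not called (0.35, adjusted p = 0.0684).

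All 24 fits that each left out 1 library kept the calls of the 5 members in light against dark. With the hippocampal markers as a covariate, 1 of the 6 members, Egr1, still passed (log2 fold change 1.40, adjusted p = 0.0361), where 5.9% of all genes were called, with 1.17 for Egr3 (adjusted p = 0.298), 2.42 for Egr2 (0.0916) and 1.08 for Egr4 (0.114) and 0.15 for Nab2 (0.617). The covariate was the mean log2 CPM of the 8 tested hippocampal genes. The summed level of all 11 was higher in every dark library than in any light one, so hippocampal level and group cannot be cleanly told apart.

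**Figure D2:**
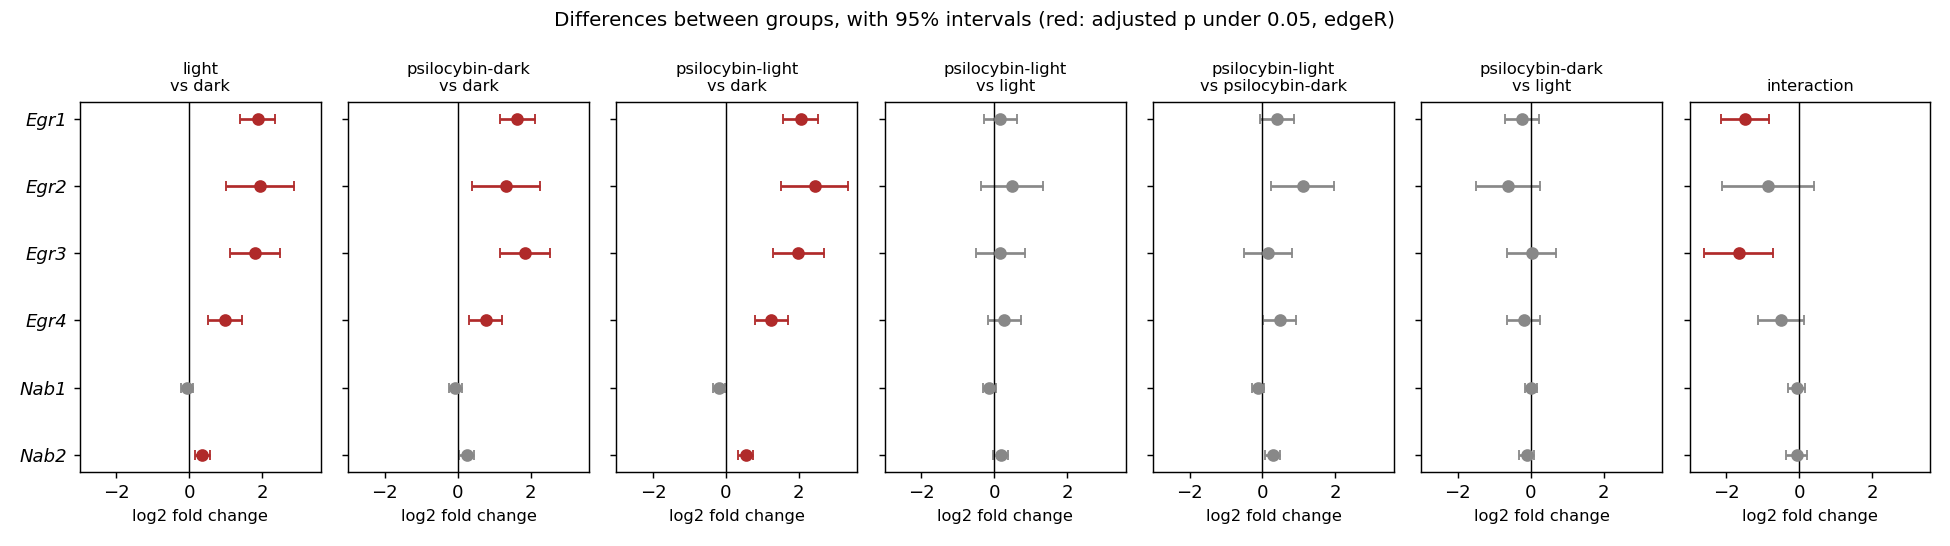
Log2 fold changes of the 6 genes in each comparison, with 95% intervals from the edgeR fit on 24 libraries, and in red those with an adjusted p under 0.05. The intervals of the 4 Egr genes lie above 0 in all 3 comparisons with dark mice, those of Nab1 stay within 0.36 of 0 in the comparisons between 2 groups, and the interactions of Egr1 and Egr3 lie below 0.

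Psilocybin-dark against dark asks what the drug did without light. All 4 Egr genes were higher, 4 of 6 members, in a contrast where 24.7% of genes were called and 11.9% were higher. Only for Egr1 did all 6 psilocybin-dark libraries lie above all 6 dark ones, against 3.13% of all genes. The median log2 fold change of all genes was -0.02.

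Egr3 ranged from 3920 to 10196 normalized counts in psilocybin-dark mice (median 8473) and rose 3.57-fold over dark mice (interval 2.22 to 5.76, log2 fold change 1.84, SE 0.33, adjusted p = 0.000392). The lowest of these libraries was number 12, which carried cerebellar markers and fell below dark library 5. Egr1 ranged from 4485 to 8590 and its log2 fold change was 1.64 (SE 0.23, adjusted p = 3.36e-05). Both were larger steps than that of Egr4, which held 752 to 1108 counts and rose by 0.77 (SE 0.22, adjusted p = 0.0135).

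Egr2 was the least secure call of the contrast. Its psilocybin-dark libraries held 114 to 233 normalized counts (median 194), 2 dark libraries (numbers 2 and 4) lay within that range, and the log2 fold change was 1.33 (SE 0.45, adjusted p = 0.0334). The call was lost when any one of dark libraries 1, 3 and 5 or psilocybin-dark libraries 8, 9 and 10 was left out, with an adjusted p of at most 0.0656. It was lost as well without dark libraries 1 and 6 (log2 fold change 0.83, adjusted p = 0.0878) and without libraries 1, 6, 12 and 18 (0.93, adjusted p = 0.0544). Fitted on the 2 groups alone, the contrast called 3 members, Egr1, Egr3 and Nab2, while Egr2 had an adjusted p of 0.102 and Egr4 of 0.0779. That fit called 13.8% of all genes, against 24.7% in the fit over all 4 groups.

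Nab2 had 547 to 619 normalized counts in psilocybin-dark mice and a log2 fold change of 0.25 that did not pass (SE 0.10, adjusted p = 0.0714). It passed without dark library 6 or without psilocybin-light library 20, with an adjusted p as low as 0.0285, and without libraries 1, 6, 12 and 18 (0.27, adjusted p = 0.0415). For Nab1 the difference was -0.06, with an interval of -0.23 to 0.11. None of the 6 members was called with the hippocampal covariate, under which no gene of the 14464 passed in this contrast, and the log2 fold changes were then 1.13 for Egr1, 1.83 for Egr2, 1.15 for Egr3 and 0.88 for Egr4.

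Psilocybin-light mice differed most from dark mice. The 4 Egr genes and Nab2 were higher, again 5 of 6 members, where 38.4% of genes were called and 17.4% were higher. For all 4 Egr genes the 6 psilocybin-light libraries lay above the 6 dark ones, 4 of 6 members against 8.28% of all genes. Egr2 held 177 to 672 normalized counts (median 413) and rose 5.37-fold over dark mice (interval 2.82 to 10.2, log2 fold change 2.43, SE 0.45, adjusted p = 0.000207). Its value was 1.93 without libraries 1, 6, 12 and 18 (adjusted p = 0.000138).

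Egr1 held 6751 to 11721 counts and had a log2 fold change of 2.05 (SE 0.23, adjusted p = 9.84e-07). Egr3 held 6462 to 9966 counts (median 8836), with a log2 fold change of 1.98 (SE 0.33, adjusted p = 7.97e-05). Egr4 held 940 to 1534 counts (median 1264), with a log2 fold change of 1.25 (SE 0.22, adjusted p = 0.000142). The lowest psilocybin-light library for Egr3 was number 23 and for Egr1 number 19, and both lay well above the highest dark library.

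Nab2 reached 531 to 860 normalized counts in psilocybin-light mice (median 707), a rise of 1.45-fold (interval 1.26 to 1.68, log2 fold change 0.54, SE 0.10, adjusted p = 0.000209). Its library 20, the lowest, fell within the dark range, and the other 5 lay above all dark libraries. Nab1 spanned 461 to 568 counts. It had a log2 fold change of -0.19 with an interval of -0.36 to -0.02 that excluded 0 before adjustment and not after it (adjusted p = 0.0693). Leaving out dark library 2, dark library 5 or psilocybin-light library 23 brought Nab1 under the threshold (adjusted p = 0.0208 at the lowest), whereas without libraries 1, 6, 12 and 18 its value was -0.05 (adjusted p = 0.541). With the hippocampal covariate, Egr1 (1.53, adjusted p = 0.0263) and Egr2 (2.94, adjusted p = 0.0463) passed, 2 of 6 members, where 7.81% of all genes were called.

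The 3 groups that had light, psilocybin or both were then compared with one another. Between psilocybin-light and light mice 0 of 6 members passed, with 0.608% of all genes called. By edgeR 1402 genes had an unadjusted p under 0.05 there, none of them a member. DESeq2 also called 0 members, with 1.32% of all genes called. The differences were 0.17 for Egr1 (interval -0.29 to 0.63), 0.48 for Egr2 (-0.37 to 1.34), 0.17 for Egr3 (-0.49 to 0.84), 0.27 for Egr4 (-0.18 to 0.73), -0.13 for Nab1 (-0.30 to 0.04) and 0.18 for Nab2 (-0.03 to 0.38), on the log2 scale. These intervals leave room for a further rise of Egr2 of up to 2.53-fold.

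Between psilocybin-dark and light mice 0 of 6 members passed as well, with 0.456% of all genes called and 2076 at an unadjusted p under 0.05. Egr3 had a log2 difference of 0.02 (interval -0.64 to 0.69) and Nab1 of 0.00 (-0.17 to 0.17). Egr1 was at -0.24 (-0.70 to 0.22), Egr2 at -0.62 (-1.49 to 0.26), Egr4 at -0.20 (-0.66 to 0.25) and Nab2 at -0.11 (-0.32 to 0.10). DESeq2 called 0 members here too, with 2.8% of all genes called.

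Psilocybin-light against psilocybin-dark, the addition of light to the drug, called 0 of 6 members after adjustment, with 6.38% of all genes called and 2873 at an unadjusted p under 0.05. Egr2 differed by 1.10 (interval 0.23 to 1.97, adjusted p = 0.13), Egr4 by 0.48 (0.02 to 0.93, adjusted p = 0.221) and Nab2 by 0.29 (0.08 to 0.49, adjusted p = 0.0887), so these 3 had intervals above 0 before adjustment. Egr1 differed by 0.40 (-0.06 to 0.87), Egr3 by 0.15 (-0.52 to 0.81) and Nab1 by -0.13 (-0.30 to 0.04). The calls here changed with libraries outside the comparison, and the cause was not tested. Without dark libraries 1 and 6, Egr2 (adjusted p = 0.0198), Egr4 (0.0109) and Nab2 (0.0442) all passed, with log2 differences of 1.10, 0.48 and 0.29, and 12.5% of all genes were then called. The same 3 passed without libraries 1, 6, 12 and 18, with 17.2% of all genes, Egr2 and Egr4 passed when the 2 groups were fitted alone, with 12.1% of all genes, and Nab2 passed without psilocybin-light library 20 (adjusted p = 0.018).

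The interaction compares the step from light to psilocybin-light with the step from dark to psilocybin-dark. It was below 0 for Egr1 (log2 -1.48, SE 0.32, adjusted p = 0.00756) and for Egr3 (-1.66, SE 0.46, adjusted p = 0.0266), 2 of 6 members, where 8.75% of all genes were called. In Egr3 the steps were 0.17 in light and 1.84 in the dark, and in Egr1 they were 0.17 and 1.64. Egr2 (-0.84, SE 0.61, adjusted p = 0.42), Egr4 (-0.50, SE 0.31, adjusted p = 0.336), Nab1 (-0.07, SE 0.12) and Nab2 (-0.07, SE 0.14) did not pass. For Egr3 the call was lost without psilocybin-dark library 10 (adjusted p = 0.0516) and was kept without libraries 1, 6, 12 and 18 (-1.47, adjusted p = 5.11e-05). With the hippocampal covariate both were lost, at -1.0 for Egr1 (adjusted p = 0.454) and -1.03 for Egr3 (adjusted p = 0.691), and 0 of all genes were called. The 3 comparisons with dark mice and the interaction share the same 6 dark libraries.

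Proportions among the members shifted between the dark group and the rest. Summed over the 4 Egr genes, the level per length was 69.0 ± 32.3 RPKM in dark, 237 ± 35.2 in light, 218 ± 52.0 in psilocybin-dark and 269 ± 45.0 in psilocybin-light mice (SD, n = 6). Per unit of summed Nab RPKM, this came to 6.06 ± 3.03 in dark mice (2.13 to 9.89) and to 18.0 ± 2.89, 17.1 ± 3.75 and 19.4 ± 3.50 in the other 3 groups, whose lowest library, number 12, stood at 10.2. Dark library 5, the highest of its group, and library 12 were thus nearly level. The Nab2 share of the summed Nab level was 56.5% ± 4.06 in dark mice, 63.3% ± 2.42 in light, 61.7% ± 1.98 in psilocybin-dark and 67.9% ± 4.32 in psilocybin-light mice.

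Within the Egr family, the share of Egr4 was 10.5% ± 2.04 of the summed RPKM in dark mice and between 5.72% and 6.12% in the means of the other groups. Dark library 5 was the exception among dark mice, with 6.59%, and the highest values elsewhere were 7.94% in light library 18 and psilocybin-dark library 12. Egr1 kept a mean share of 45.7% to 49.2% and Egr3 one of 39.4% to 47.0%. Egr2 made up 1.59% to 2.64%. These shares are given as values without a test.

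**Figure D3:**
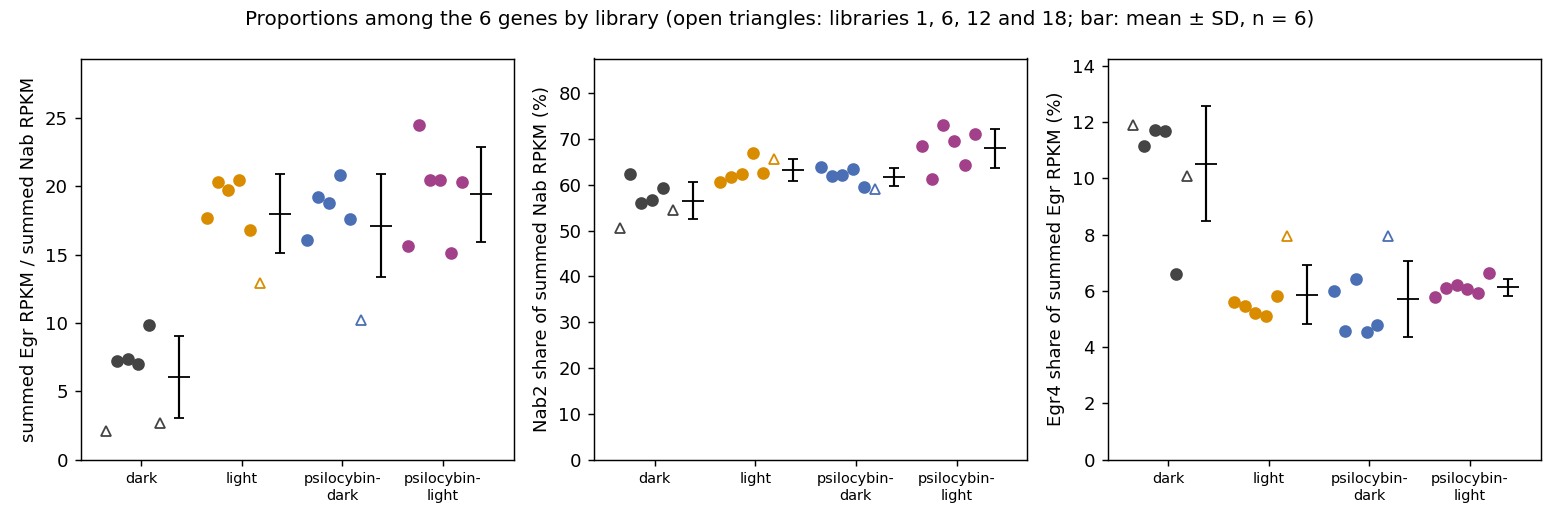
Ratios of RPKM sums in each library, by group, with the mean and SD of 6 mice. Left, Egr over Nab, where dark libraries reach 9.89 and the lowest other library, an open triangle, is at 10.2. Middle, the Nab2 share of both Nab genes, with means of 56.5% in dark and 67.9% in psilocybin-light mice. Right, the Egr4 share of the 4 Egr genes, at 10.5% in dark mice.

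Across the 24 libraries the 4 Egr genes varied together. On log2 CPM, Pearson's r was 0.95 between Egr1 and Egr3 and also 0.95 between Egr2 and Egr4. With each group's mean subtracted these were 0.85 and 0.87, so mice of one group varied together as well. Egr1 and Egr4 had 0.92 over all libraries and Egr3 and Egr4 had 0.90. Over the 18 libraries that were not dark, r was 0.88 between Egr2 and Egr4, 0.84 between Egr1 and Egr2, 0.81 between Egr1 and Egr4 and 0.71 between Egr1 and Egr3, and Egr3 had 0.41 with Egr4 and 0.39 with Egr2. Nab2 followed Egr1 (0.74) more loosely, with 0.35 after the group means were subtracted, and Nab1 ran the other way, from -0.42 with Egr1 to -0.64 with Egr2. These are descriptions over 24 libraries that share groups, tissue composition and the cerebellar signal of libraries 1, 6, 12 and 18.

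Among the 11109 genes that averaged 100 counts or more, those most like Egr1 across the libraries were Dusp14 (r = 0.974), Arc (0.964) and Rtn4r (0.960), of which Arc encodes a synaptic protein made on activity. For Egr2 they were its relative Egr4 (0.951), Erf (0.939) and Ccn1 (0.937), and for Egr4 they were Egr2 (0.951), the adrenergic receptor gene Adrb1 (0.944) and Cck (0.931). The nearest to Egr3 were Ngef (0.987), the chemokine gene Cx3cl1 (0.985) and the G-protein regulator Rgs4 (0.982). With group means subtracted, the top gene for Egr2 was Junb (0.909) and for Egr3 was Cx3cl1 (0.986). Egr1 kept Dusp14 (0.933), and Il34 (0.918) was nearest to Egr4. By rank correlation the nearest genes were Nr4a1 for Egr1 (0.937), Ccn1 for Egr2 (0.960), Lingo1 for Egr3 (0.982) and Fos for Egr4 (0.956).

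The Nab genes had weaker companions. For Nab2 these were 1810055G02Rik (0.849), Sertad1 (0.835) and Bhlhe40 (0.822), and for Nab1 they were Ppp2r1b (0.820), Fkbp4 (0.818) and Gatad2a (0.813), a NuRD subunit. After the group means were subtracted, Stk40 (0.826), Irf2bpl (0.799) and Zbtb2 (0.743) led for Nab2, and Lypla1 (0.860), Slc25a5 (0.856) and Fbxo9 (0.856) for Nab1. Correlations with Nab1 rest on a gene whose normalized counts stayed between 461 and 730 in all libraries.

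**Figure D4:**
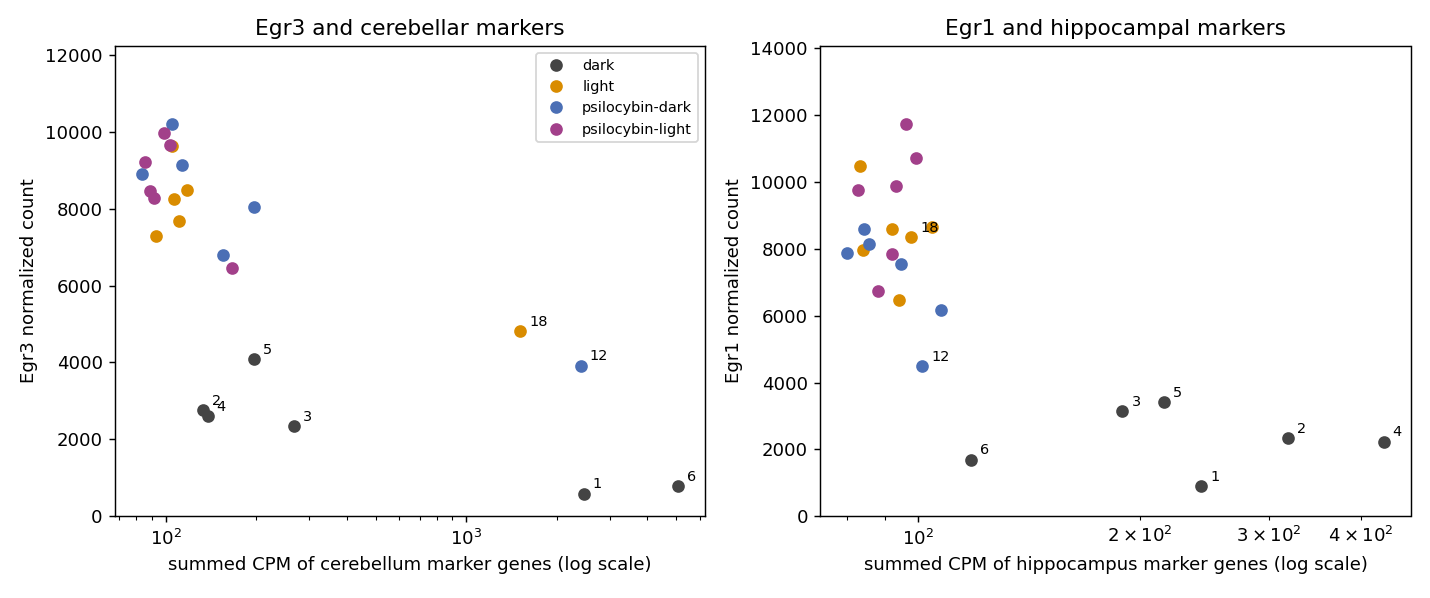
Left, Egr3 normalized counts against the summed CPM of 10 cerebellar marker genes (log scale). The 4 libraries with sums of 1511 to 5084 CPM, numbers 1, 6, 12 and 18, are also the lowest or next to lowest Egr3 values of their groups. Right, Egr1 normalized counts against the summed CPM of 11 hippocampal marker genes (log scale), where the 6 dark libraries, from 117.9 to 429.3 CPM, lie to the right of all others.

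The cerebellar libraries were low in Egr3. Dark libraries 1 and 6 had 588 and 775 normalized counts against 2347 to 4086 in the other 4 dark mice, psilocybin-dark library 12 had 3920 against 6790 to 10196, and light library 18 had 4818 against 7293 to 9643. Egr1 did not follow in light library 18, which had 8337 counts within a group range of 6456 to 10488, and its Egr2 (398), Egr4 (1208) and Nab2 (770) were first or second in that group. With the cerebellar markers as a covariate, 5, 4 and 5 members passed in light, psilocybin-dark and psilocybin-light against dark, the same genes as without it. The shares of all genes called were then 36.4%, 27.3% and 39%, against 31.9%, 24.7% and 38.4% without the covariate. The Egr3 log2 fold changes with the covariate were 1.40, 1.51 and 1.38. The part of the cerebellar signal in the Egr3 differences was otherwise not tested.

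Counts of Nab2 may be affected by genes on the other strand, since it is not stated whether counting used strand. The exons of Nab2 overlap those of Stat6 by 77 bases, those of Nemp1 by 651 bases and those of the noncoding Gm16229 by 1050 bases, all on the opposite strand. Gm16229 had 0 to 5 reads per library. Stat6, an interleukin signal transducer, was higher in light (log2 fold change 0.65, adjusted p = 0.000943) and Nemp1, a nuclear membrane protein, was lower (-0.55, adjusted p = 0.00226). Stat6 had 118 to 308 reads per library and Nemp1 50 to 127, both below those of Nab2 (452 to 938). Without strand, reads from the overlapping bases cannot be assigned to either side of the locus, and how such reads were counted is not stated. A like limit holds for Egr4, of whose exons 1011 bases (21.6%) lie opposite the noncoding Gm67895, a gene absent from the count table. The nearest protein-coding neighbours of the Egr genes, Etf1, Reep2, Ado and Fbxo41, were not called in any of the 3 comparisons with dark mice, and Bin3, next to Egr3, was called in psilocybin-light mice alone (0.32, adjusted p = 0.0079).

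A list of 25 genes known as Egr targets in various tissues was examined, of which 24 were tested and Fasl was too low. In light against dark 8 rose, 3 fell and 13 did not pass, with a median log2 fold change of 0.13 against -0.01 for all genes. In psilocybin-dark against dark 7 rose and 2 fell (median 0.20), and in psilocybin-light against dark 7 rose and 3 fell (median 0.03). Of all genes, 31.9%, 24.7% and 38.4% were called in these comparisons in either direction. Among the 3 other groups, Cd44 in psilocybin-light against psilocybin-dark mice (-2.07, adjusted p = 0.0224) was the single call.

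The members of the target list that moved went both ways. Arc rose by 2.83 in light (SE 0.31, adjusted p = 1.57e-06), 2.44 in psilocybin-dark and 3.23 in psilocybin-light mice. Gadd45a, a stress-responsive gene active in DNA demethylation, rose by 1.06, 1.38 and 1.39. By contrast Cd44, a hyaluronan receptor, fell by 1.97 in light mice (SE 0.51, adjusted p = 0.00502) and by 2.88 in psilocybin-light mice, with -0.81 in psilocybin-dark mice (adjusted p = 0.237), and Ngfr, a neurotrophin receptor, fell by 1.44, 1.14 and 1.43. Syn2, which encodes a synaptic vesicle protein and was named after its values were seen, fell by 0.61, 0.51 and 0.68 (adjusted p = 0.000705 in light mice). Of the members that did not pass in light mice, the most abundant were Syn1 (0.23, adjusted p = 0.0987) and Cdk5r1 (0.17, adjusted p = 0.374). The interaction was below 0 for Arc (-2.03, adjusted p = 0.00554), Cdkn1a (-1.19, adjusted p = 0.00381) and Vegfa (-0.49, adjusted p = 0.025), 3 of 24.

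**Figure D5:**
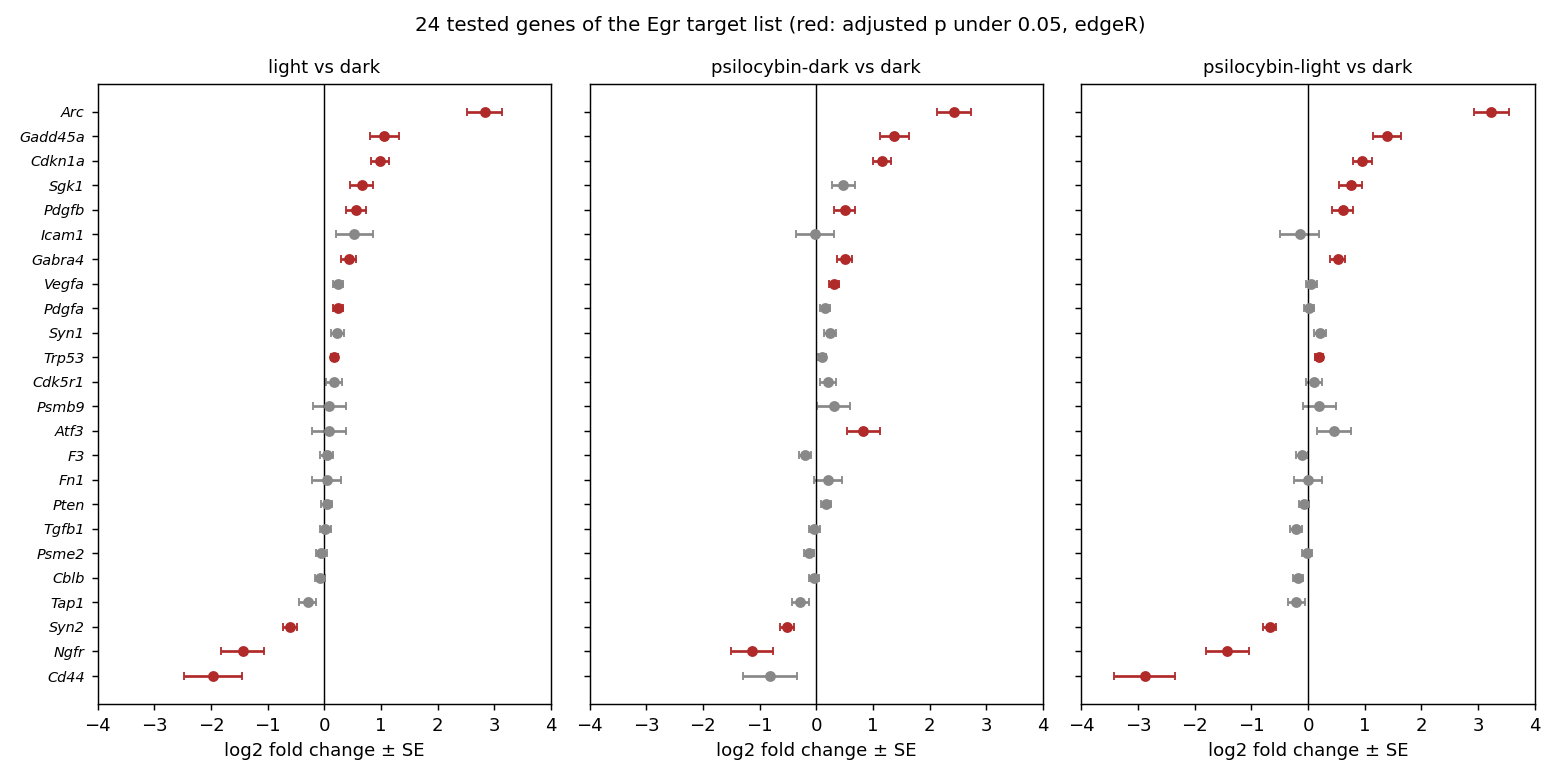
Log2 fold changes (with SE) of the 24 tested genes of the Egr target list in each comparison with dark mice, in the order of their change in light mice, with those at an adjusted p under 0.05 in red. Arc lies at 2.83, 2.44 and 3.23, Cd44 and Ngfr lie to the left of 0, and 13 of the 24 genes are grey in light against dark.

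Of 6 genes that Egr2 controls in myelinating cells, 5 were tested and 0 passed in light or psilocybin-dark against dark. Mbp (0.34, adjusted p = 0.47) and Mag (0.22, adjusted p = 0.687) were the most abundant in light mice.

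Nab proteins recruit the NuRD complex. Of its 13 tested genes 2 rose and 1 fell in light against dark, 2 rose and 0 fell in psilocybin-dark against dark, and 3 rose and 2 fell in psilocybin-light against dark, where 31.9%, 24.7% and 38.4% of all genes were called. In psilocybin-light mice the 5 were Mta2 (0.27), Rbbp7 (0.22), Hdac2 (0.13), Gatad2b (-0.24) and Chd3 (-0.53). Chd3, a helicase subunit, fell by 0.46 in light mice (SE 0.16, adjusted p = 0.0287), while Mta1 rose by 0.23 (adjusted p = 0.00245) and Mta2 by 0.19 (adjusted p = 0.00925). Chd4, the subunit that Nab2 contacts, had -0.03 (adjusted p = 0.611) and Rbbp7, a histone-binding subunit, had 0.07, and the medians of the list were 0.04, 0.05 and 0.06 in the 3 comparisons.

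Genes upstream of Egr transcription, 14 members of the SRF, TCF, ERK and CREB route, were read against the same shares of all genes. In light against dark 1 rose and 2 fell, in psilocybin-dark against dark 1 rose and 2 fell, and in psilocybin-light against dark 1 rose and 3 fell. Rps6ka5, which encodes the kinase MSK1, fell by 0.67 in light mice (SE 0.09, adjusted p = 9.6e-06), Mapk3, which encodes ERK1, fell by 0.49 (SE 0.17, adjusted p = 0.0333) and Map2k2 rose by 0.23 (SE 0.04, adjusted p = 0.00022). Outside light against dark, Elk3 rose in psilocybin-dark mice (0.39, adjusted p = 0.0263) and Creb1 fell in psilocybin-light mice (-0.30, adjusted p = 0.0377). Map2k1, which encodes the kinase MEK1, did not pass in light mice (-0.11, adjusted p = 0.339). Of the related GC-box factors, Wt1 was too low to test, and of the other 4 Sp3 was the one called in light against dark (-0.14, adjusted p = 0.00909) and in psilocybin-light against dark (-0.15, adjusted p = 0.00486), with Sp4 at -0.22 (adjusted p = 0.0526) and Sp1 at -0.15 in light mice.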

How the data were processed

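The visual cortex of 24 mice was profiled by poly-A RNA-seq. The deposited values are raw counts per gene: per the labels and the study's methods, the authors trimmed reads with cutadapt, aligned them with STAR and counted them with HTSeq. The methods name GRCm39 and the labels mm10. Tool versions, annotation release and strand setting are not given in the sources used here. Gene names came from GENCODE vM39. Genes with 30 or more counts in any library were kept, TMM-normalized and fitted over all 24 libraries with edgeR 4.0.16 (quasi-likelihood test, R 4.3.3, limma 3.58.1), with Benjamini-Hochberg adjustment over 14464 genes, a threshold of 0.05 and 95% intervals. The script was tested on simulated data. No 2 libraries of a group agreed within sampling noise (lowest chi-square over its degrees of freedom 3.1, in 60 pairs). Alternatives used DESeq2 1.42.0, its size factors, other filters and thresholds, surrogate variables (sva 3.50.0), marker covariates, left-out libraries and the exchanged light labels. The genes reported and the lists were chosen with earlier results of these data known. From each list, up to 4 called genes with the largest change in light against dark and up to 2 abundant genes that were not called are named, and other genes of small counts were named after their values were seen. Lengths for RPKM are union exons of GENCODE vM39. Results for 2 genes of these lists are not reported here.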

Additional observations from a re-analysis of the deposited data

Results flagged for a closer look

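The effect of psilocybin differed between light and dark for 2 of the 6 genes by the interaction term of the edgeR fit, where 8.75% of all genes were called. Of the 8 cortical neuron markers, 3 were lower and 0 higher in the same term (median log2 value -0.71). With the hippocampal covariate 0 of the 6 genes and 0 of all genes were called in it. The difference was -1.48 for Egr1 (SE 0.32, adjusted p = 0.00756) and -1.66 for Egr3 (SE 0.46, adjusted p = 0.0266) on the log2 scale, and by the light exposure in GEO's treatment labels both take the opposite sign.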

How the results depend on the processing

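Leaving aside fits without a single library, 524 of 624 values of single genes kept their direction and their side of the threshold, 30 lost a call, 25 gained one and 45 changed sign. DESeq2, its size factors and both other filters called the same genes as reported. The number of the 6 genes called fell with the hippocampal markers as covariate. It was 1 in light (5.9% of all genes called), 0 in psilocybin-dark (0%) and 2 in psilocybin-light (7.81%) against dark. In the interaction it was 0 (0%). At an adjusted p under 0.01 it was 2 in psilocybin-dark against dark (13.4% of all genes) and 1 in the interaction (2.21%). With a log2 fold change of at least 1 it was 3 in light against dark (4.59% of all genes). It was then 3 in psilocybin-dark (3.91%) and 4 in psilocybin-light (6.26%) against dark. With 1 surrogate variable it rose to 3 in the interaction, where Egr4 joined Egr1 and Egr3. The share of all genes called there was 19.8%, against 8.75% in the main fit. In psilocybin-light against psilocybin-dark, 2 passed with only those groups fitted (12.1% of all genes) and 1 with the cerebellar covariate (12.7%). There 3 passed without dark libraries 1 and 6 (12.5%) and 3 without libraries 1, 6, 12 and 18 (17.2%). Without dark libraries 2, 3, 4 and 5, 2 passed there (10.7%) and 4 in the interaction (28% of all genes). The main fit called 6.38% of all genes in psilocybin-light against psilocybin-dark. Without dark libraries 2, 3, 4 and 5, Nab1 was lower in light (-0.28), psilocybin-dark (-0.28) and psilocybin-light (-0.40) against dark, all called. In these comparisons 43.4%, 41.2% and 47.4% of all genes were called, and Nab2 was not called in light against dark. Leaving out 1 library in turn gave 0 to 1 in psilocybin-light against psilocybin-dark and 1 to 2 in the interaction. The 1 in psilocybin-light against psilocybin-dark came without psilocybin-light library 20, where 4.67% of all genes were called. The 1 in the interaction came without psilocybin-dark library 10, with 5.78% of all genes. An interaction from only the groups compared was not run, since it uses all 4. The cause of these changes was not tested.

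With the exchanged light labels, 5 were lower in light against dark, and 0 passed in psilocybin-dark and 0 in psilocybin-light against dark. Against light, 4 passed in psilocybin-light and 5 in psilocybin-dark mice, and 2 were higher in the interaction. In the same order, 31.9%, 0.608%, 0.456%, 24.7%, 38.4% and 8.75% of all genes were called. The log2 values for Egr1, Egr2, Egr3, Egr4, Nab1 and Nab2 became -1.88, -1.94, -1.81, -0.98, 0.06 and -0.36 in light against dark, -0.40, -1.10, -0.15, -0.48, 0.13 and -0.29 in psilocybin-light against psilocybin-dark, and 1.48, 0.84, 1.66, 0.50, 0.07 and 0.07 in the interaction. Those that changed sign elsewhere were, in psilocybin-light against dark, Egr1 at -0.24, Egr2 at -0.62, Egr4 at -0.20, Nab1 at 0.00 and Nab2 at -0.11, and in psilocybin-dark against light, Egr1 at 2.05, Egr2 at 2.43, Egr4 at 1.25, Nab1 at -0.19 and Nab2 at 0.54.

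Other changes of sign were all of values near 0 and not called. With 1 surrogate variable, Egr3 was -0.02 in psilocybin-light and -0.05 in psilocybin-dark against light. With the hippocampal covariate, Egr3 (-0.02) and Nab1 (-0.01) turned in psilocybin-dark against light, and Nab1 (0.06) and Nab2 (0.13) in the interaction. With the cerebellar covariate, Nab1 was 0.06 in light and 0.04 in psilocybin-dark against dark and -0.02 in psilocybin-dark against light, and Egr3 was -0.02 in psilocybin-light against light and -0.13 in psilocybin-light against psilocybin-dark. Without dark libraries 1 and 6, Nab1 was 0.08 in light and 0.07 in psilocybin-dark against dark and -0.00 in psilocybin-dark against light, without dark libraries 2, 3, 4 and 5 it was 0.16 in the interaction, and without libraries 1, 6, 12 and 18 it was 0.04 and 0.05 in light and psilocybin-dark against dark. Over the fits that left out 1 library, Nab1 ran from -0.11 to 0.02 in light and in psilocybin-dark against dark and from -0.04 to 0.04 in psilocybin-dark against light, Egr3 from -0.08 to 0.16 in psilocybin-dark against light, and Nab2 from -0.13 to 0.01 in the interaction. No paired analysis was possible because each library number belongs to 1 mouse of 1 group. Depth limits Egr2 most, at 11 reads in its lowest library.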
